A study of Mus musculus with 8 samples.

Results

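C/EBPα occupancy around Srebf1 and Mlxipl, the genes of the lipogenic transcription factors SREBP-1 and ChREBP, was described in mouse liver by chromatin immunoprecipitation and sequencing (ChIP-seq). The members are all peaks that lie in mm9 chr11:59960000-60090000, a region of 130 kb around Srebf1, or in chr5:135520000-135660000, a region of 140 kb around Mlxipl. Joined across libraries, these peaks form 32 sites of the 113353 sites in the whole data set, 14 at Srebf1 and 18 at Mlxipl. They are defined by position alone, but the genes were picked with earlier results of these data known.

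The 8 libraries came from livers of mice aged 8 to 10 weeks and labelled with the strain C57B/6, fasted for 4 hours and all given an adeno-associated virus (AAV) vector. Trib1_WT (n = 2) were mice with floxed alleles of Trib1, the gene of the pseudokinase Tribbles-1, given 1.5e11 genome copies of the empty vector AAV_Null, and Trib1_LSKO (n = 2) were floxed mice given the same dose of AAV_Cre, which codes for Cre recombinase. AAV_Null (n = 2) and AAV_Cebpa (n = 2) were wild-type mice given 1e12 genome copies of either the empty vector or one that codes for C/EBPα. The labels name neither the promoters of the vectors nor whether replicates are separate animals or pools, so spreads between replicates may be technical. Peak lists hold no RNA, and Trib1 deletion, C/EBPα protein and hepatocyte markers could therefore not be checked.

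C/EBPα is a basic leucine zipper transcription factor that is abundant in hepatocytes and acts on genes of glucose and lipid metabolism. SREBP-1, coded by Srebf1, is a membrane-bound basic helix-loop-helix factor that is cut free to enter the nucleus and drives genes of fatty acid synthesis. Its isoform SREBP-1c, the main form in liver and responsive to insulin, starts at a first exon downstream of that of SREBP-1a. ChREBP, coded by Mlxipl, responds to carbohydrate and drives glycolytic and lipogenic genes as a dimer with Mlx. Its shorter, constitutively active isoform ChREBP-β starts at a first exon upstream of that of ChREBP-α, and its promoter is itself a target of ChREBP.

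Transcript starts set the frame for the sites, and which start belongs to which isoform was not assigned. The RefSeq promoter table, on build GRCm38.p6, holds 3 starts for Srebf1, which is on the minus strand. The other two lie 2.0 and 12.1 kb downstream of the outermost. For Mlxipl, on the plus strand, it holds 2 starts 17.0 kb apart. The peaks are on mm9, and positions were not converted between builds, so sites are given here by their distance, in the direction of transcription, from the approximate mm9 start of the gene that was given with the choice of regions (about 60036100 for Srebf1 and 135565700 for Mlxipl). Distances to the inner starts hold only if spacing within the gene is the same in both builds, which was not tested. The 300 bases around the innermost Srebf1 start and around the outermost Mlxipl start, 250 before and 50 after each, are shown because a C/EBPα site was called at the matching distance. Letters are 5′ to 3′ on the gene's own strand, and capitals mark the CCAAT box, on either strand, and the E-box CACGTG.
Srebf1 innermost start (RefSeq, GRCm38.p6, minus strand, chr11:60210422-60210721): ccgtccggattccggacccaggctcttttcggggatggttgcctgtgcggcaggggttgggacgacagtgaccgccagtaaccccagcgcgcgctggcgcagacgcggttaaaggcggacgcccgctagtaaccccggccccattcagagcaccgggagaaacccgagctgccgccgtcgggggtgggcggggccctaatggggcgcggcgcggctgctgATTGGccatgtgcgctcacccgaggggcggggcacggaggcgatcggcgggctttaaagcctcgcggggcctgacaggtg
Mlxipl outermost start (RefSeq, GRCm38.p6, plus strand, chr5:135089640-135089939): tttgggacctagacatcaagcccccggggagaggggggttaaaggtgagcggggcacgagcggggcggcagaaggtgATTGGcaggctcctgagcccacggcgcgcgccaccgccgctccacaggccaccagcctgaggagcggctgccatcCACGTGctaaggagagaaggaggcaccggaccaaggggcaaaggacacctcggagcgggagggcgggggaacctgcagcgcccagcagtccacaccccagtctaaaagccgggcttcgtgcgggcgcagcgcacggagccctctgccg
CCAAT was present once on either strand in each of these windows, and in 37.4% of the 32851 promoters of this length in the table. CACGTG, the core of elements bound by ChREBP and other basic helix-loop-helix factors, was present in the Mlxipl window and in 7.15% of all promoters. TTGCNNAA, a C/EBP dimer site with a free centre, was searched on both strands and does not occur in these letters, nor in the other 3 Srebf1 and Mlxipl promoters. It occurs in 10.8% of all promoters. The sequence under the peaks themselves was not analysed here.

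The 8 lists held 46348 to 80394 peaks of 200 bp. AAV_Cebpa had the longest lists, 59564 and 80394 peaks, and a relative sequencing depth of 1.85 and 2.27, against 1.00 and 1.17 for AAV_Null. The values were 1.14 and 1.93 for Trib1_WT and 1.18 and 1.28 for Trib1_LSKO, so Trib1_WT overlapped both AAV groups. Because the signal of a peak can be read only inside its own list, each peak is given by its percentile there, with 100 for the strongest peak. Percentiles from lists of different lengths are not measures of a change in binding: a longer list adds weak peaks and so raises the percentile of a strong one. For this reason values with all lists reduced to the strongest 46348 peaks are given where they bear on a comparison.

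Both regions carried more C/EBPα sites than the mean for a stretch of their length. The 14 Srebf1 sites compare with a mean of 5.58 in consecutive 130 kb windows of the genome, and 13.2% of the 20301 windows held as many or more. The 18 Mlxipl sites compare with a mean of 6.01 in 140 kb windows, and 8.25% of 18853 windows held as many or more. Of the 32 sites, 10 were called in all 8 lists, against 21.5% of all sites. These were 3 of 14 at Srebf1 and 7 of 18 at Mlxipl, a number that 3.89% of 140 kb windows reached. A single list held 4 sites (background 27.1%), and 3 of these 4 were in AAV_Cebpa replicate 2, the longest list.

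The Srebf1 region held, in peaks per library, 9 and 7 for Trib1_WT, 6 and 7 for Trib1_LSKO, 6 and 8 for AAV_Null, and 5 and 10 for AAV_Cebpa. In the Mlxipl region there were 9 and 11 for Trib1_WT, 12 and 11 for Trib1_LSKO, 9 and 10 for AAV_Null, and 11 and 14 for AAV_Cebpa. The Mlxipl counts of AAV_Cebpa were above those of AAV_Null in both libraries, and in the other 3 comparisons of treated and control counts the groups overlapped or shared a value.

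**Figure D1:**
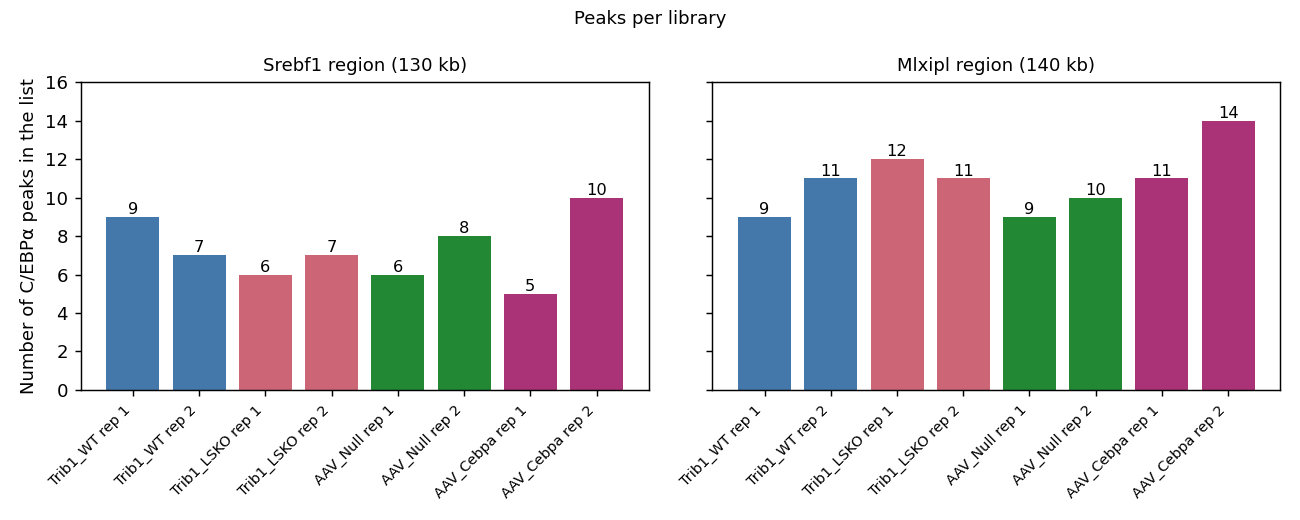
Number of C/EBPα peaks (y axis) in the Srebf1 region of 130 kb (left) and the Mlxipl region of 140 kb (right) for each library (x axis, coloured by group), 1 bar per library. Srebf1 counts run from 5 to 10, with both extremes in AAV_Cebpa, and Mlxipl counts from 9 to 14.

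Within Srebf1, the strongest site lay 17.4 kb downstream of the approximate start, at chr11:60018614-60018830. It was called in all 8 lists, at percentiles 89.8 and 93.2 for Trib1_WT, 88.6 and 91.5 for Trib1_LSKO, 87.2 and 92.7 for AAV_Null, and 91.5 and 91.7 for AAV_Cebpa. The 4 groups overlapped, and the midpoints of its 8 peaks fell within 17 bp. A weaker neighbour 18.4 kb downstream, at chr11:60017576-60017792, was called in AAV_Null at percentiles 47.5 and 46.9 and in Trib1_WT replicate 1 at 34.6, but in no library of Trib1_LSKO or AAV_Cebpa.

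The second intragenic site of Srebf1, at chr11:60023752-60024007, lay 12.2 kb downstream of the approximate start, the distance at which RefSeq places the innermost start on GRCm38.p6. Its percentiles were 75.9 and 71.4 for Trib1_WT, 61.4 and 49 for Trib1_LSKO, and 45.9 and 66.3 for AAV_Null. In AAV_Cebpa it was called only in replicate 2, at 47.9, or 9.62 with lists of equal length. Both Trib1_WT libraries thus ranked this site above both Trib1_LSKO libraries. The mean was 73.7 ± 3.2 against 55.2 ± 8.7 (SD, n = 2 each), a difference of -18.5 percentile points. A library of the second experiment, AAV_Null replicate 2, lay between the groups and the other AAV_Null library below both, so the site also varied between replicates given the same vector. The midpoints of its 7 peaks spread over 56 bp.

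Upstream of Srebf1, the nearest constant site lay 2.2 kb before the approximate start, at chr11:60038199-60038426. Percentiles were 87.5 and 92.2 for Trib1_WT, 83.9 and 86.7 for Trib1_LSKO, 84.9 and 82.8 for AAV_Null, and 78.4 and 81.4 for AAV_Cebpa. In each experiment both treated libraries ranked this site below both of their controls. A site 1.2 kb before the start lay at chr11:60037171-60037376 and was called only in AAV_Cebpa. Its percentiles were 25.6 and 51.9, or 4.4 and 16.6 with lists of equal length. It was the only Srebf1 site within 2 kb of the outermost start.

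A group of 4 sites lay 18.0 to 22.1 kb upstream of Srebf1, on the side of the neighbouring gene Tom1l2 in the RefSeq gene order. The site at 18.0 kb, chr11:60054018-60054284, was called in all 8 lists, at percentiles 68.6 and 72.3 for Trib1_WT, 72.3 and 62.6 for Trib1_LSKO, 66.7 and 73 for AAV_Null, and 77.1 and 79.5 for AAV_Cebpa. The next, at 18.9 kb, chr11:60054846-60055093, was called in all 4 libraries of the floxed mice, at 72.6 and 67.3 for Trib1_WT and 58 and 59 for Trib1_LSKO, and in none of the 4 AAV_Null and AAV_Cebpa libraries. Only 0.67% of all sites had this pattern of calls. It divides the 2 experiments, which differ in genotype and vector dose, and its cause was not tested. By percentile, both Trib1_LSKO libraries also lay below both Trib1_WT libraries at this site. The site at 19.4 kb was called in 5 lists at percentiles of 29.4 to 54.7, and the site at 22.1 kb in 6 lists at 27.4 to 47.4.

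Downstream of Srebf1, on the side of Rai1, which overlaps Srebf1 in RefSeq, 3 sites were called, each in 1 or 2 lists. The site at 24.6 kb, chr11:60011360-60011563, was listed in both Trib1_WT libraries at percentiles 3.35 and 8.64, near the weak end. The site at 59.8 kb, chr11:59976157-59976365, was listed in both AAV_Cebpa libraries, at 15 and 33.9. Sites at 44.0 kb and, inside the gene, at 21.6 kb were seen only in AAV_Cebpa replicate 2, at 1.39 and 30.1, and a site 7.5 kb upstream only in AAV_Null replicate 2, at 27.4.

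**Figure D2:**
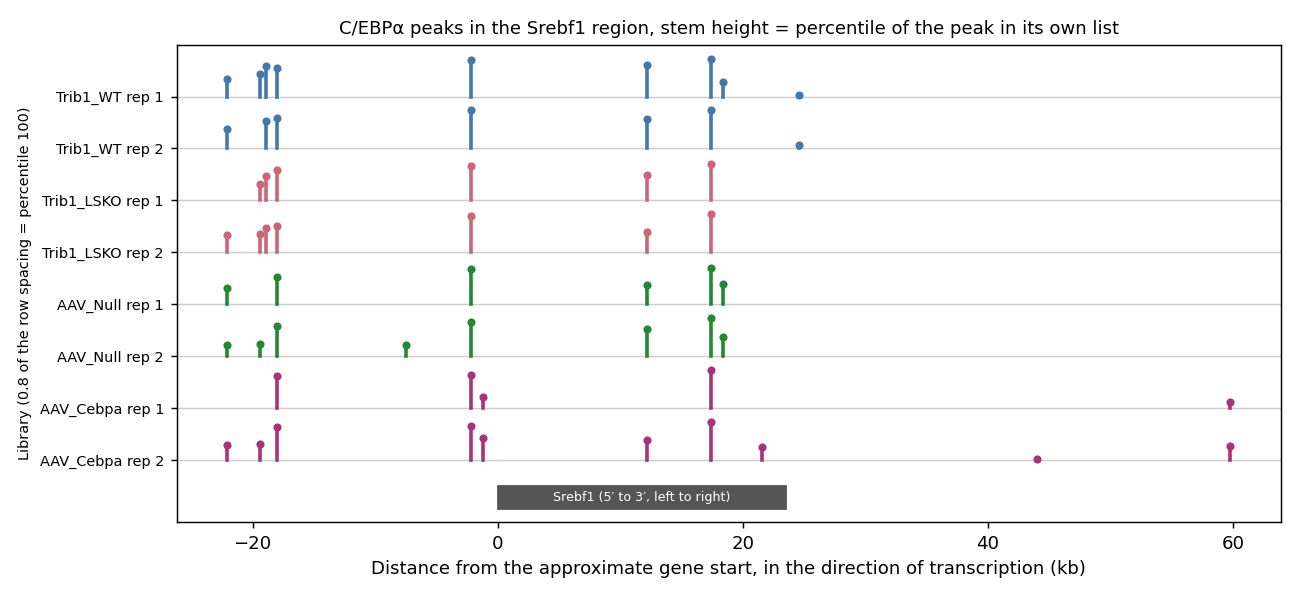
C/EBPα peaks of the 8 libraries (rows, coloured by group) in the Srebf1 region. The x axis is the distance in kb from the approximate gene start in the direction of transcription, the grey box is the approximate gene span, and the height of a stem is the percentile of the peak in its own list. The sites 18.0 and 2.2 kb upstream and 17.4 kb downstream are present in all 8 rows, and the site 18.9 kb upstream in the upper 4 rows only.

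Mlxipl carried the strongest sites of both regions, all within the gene. The site 11.3 kb downstream of the approximate start, at chr5:135576906-135577128, reached percentiles of 99.4 and 99.1 for Trib1_WT, 99.1 and 99.3 for Trib1_LSKO, 99.7 and 99.3 for AAV_Null, and 96.6 and 97.7 for AAV_Cebpa. It ranked 127 to 507 from the top in the 6 lists other than AAV_Cebpa and 2004 and 1855 in those. The 6 peaks in the strongest 1% of their lists were all at this site. With lists of equal length the AAV_Cebpa percentiles were 95.6 and 95.9, again below both controls (99.7 and 99.2).

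The second-strongest site, 18.5 kb downstream at chr5:135584138-135584360, had percentiles of 97.3 and 98.7 for Trib1_WT, 97.7 and 96 for Trib1_LSKO, 98 and 97 for AAV_Null, and 98.4 and 97.8 for AAV_Cebpa, with overlap in both comparisons. Between these lay another site at 14.7 kb, chr5:135580300-135580536. It stood at 90.2 and 93 for Trib1_WT, 83.2 and 88.7 for Trib1_LSKO, 83.7 and 84.4 for AAV_Null, and 78 and 88 for AAV_Cebpa. Trib1_LSKO was below Trib1_WT in both libraries at this site, and the AAV groups overlapped. At equal list length they did not, with AAV_Cebpa at 71.7 and 79.2 below AAV_Null at 83.7 and 83.5. The sites at 14.7 and 18.5 kb lie on either side of the distance of 17.0 kb that RefSeq gives for the inner Mlxipl start on GRCm38.p6.

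Farther inside the gene, the site at 25.6 kb, chr5:135591234-135591465, was called in all 8 lists and varied more. Its percentiles were 46.8 and 79 for Trib1_WT, 47 and 50.2 for Trib1_LSKO, 72.4 and 73 for AAV_Null, and 40.1 and 56.2 for AAV_Cebpa. Both AAV_Cebpa libraries lay below both controls, with means of 48.1 ± 11.4 and 72.7 ± 0.4 (SD, n = 2 each). With lists of equal length they stood at 23 and 24 against 72.4 and 71.5. Its neighbour at 24.8 kb, chr5:135590397-135590611, was called only in AAV_Cebpa, at 33.3 and 40.2. With lists of equal length this neighbour was called only in AAV_Cebpa replicate 1, at 14.2. The site at 28.9 kb, chr5:135594525-135594769, was called in both AAV_Null libraries at 26.9 and 55.9 and in Trib1_LSKO replicate 2 at 7.66.

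At the approximate outermost start of Mlxipl, chr5:135565561-135565818, a weak site was called in 5 of the 8 lists, at percentiles of 0.672 in Trib1_WT replicate 1, 2.84 and 15.9 for Trib1_LSKO, 16.6 in AAV_Null replicate 2 and 7.16 in AAV_Cebpa replicate 2. The 5 calls came from all 4 groups, with 3 of the groups split between replicates. At such low ranks the lists do not separate absence from a signal just under the calling threshold. A weak constant site lay 2.7 kb upstream, at chr5:135562911-135563155, with percentiles of 3.35 and 18.6 for Trib1_WT, 15.7 and 35.8 for Trib1_LSKO, 3.55 and 23.4 for AAV_Null, and 15 and 20.3 for AAV_Cebpa. Its groups overlapped in both comparisons.

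Upstream of Mlxipl, a site at 5.4 kb, chr5:135560137-135560361, was called in both AAV_Cebpa libraries at percentiles 38.7 and 69.7 and in Trib1_LSKO replicate 1 at 12.8, and in none of the 4 empty-vector libraries. At equal list length the AAV_Cebpa values were 21.3 and 47.4, and the site was still in neither AAV_Null list. The site at 28.2 kb, chr5:135537336-135537573, was also called in both AAV_Cebpa libraries but at 0.62 and 9.56, and in both Trib1_LSKO libraries at 15.7 and 4.86 and Trib1_WT replicate 2 at 2.22. The outermost site of this side, at 42.0 kb, chr5:135523603-135523873, was called in all 8 lists. It stood at 32.5 and 21.7 for Trib1_WT, 15.7 and 45 for Trib1_LSKO, 50.4 and 46.9 for AAV_Null, and 4.15 and 16.4 for AAV_Cebpa. Sites at 13.1 and 25.7 kb were called in 2 lists each, at percentiles of 9.48 to 29.4.

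Downstream of Mlxipl, beyond which Tbl2 is the next coding gene in the RefSeq order, the site at 71.5 kb, chr5:135637127-135637351, was called in all 8 lists. Percentiles were 75.9 and 76.1 for Trib1_WT, 83.9 and 77.2 for Trib1_LSKO, 80.2 and 78.9 for AAV_Null, and 81.7 and 89.8 for AAV_Cebpa. Treated libraries were above their controls in both comparisons, but with lists of equal length the AAV groups overlapped (76.5 and 82.3 for AAV_Cebpa against 80.2 and 77.7). The site at 59.5 kb, chr5:135625036-135625298, was called only in Trib1_WT, at 34.6 and 37.7. The sites at 57.9, 60.7 and 89.5 kb were called in 2, 1 and 4 lists at percentiles of 2.2 to 42.7.

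**Figure D3:**
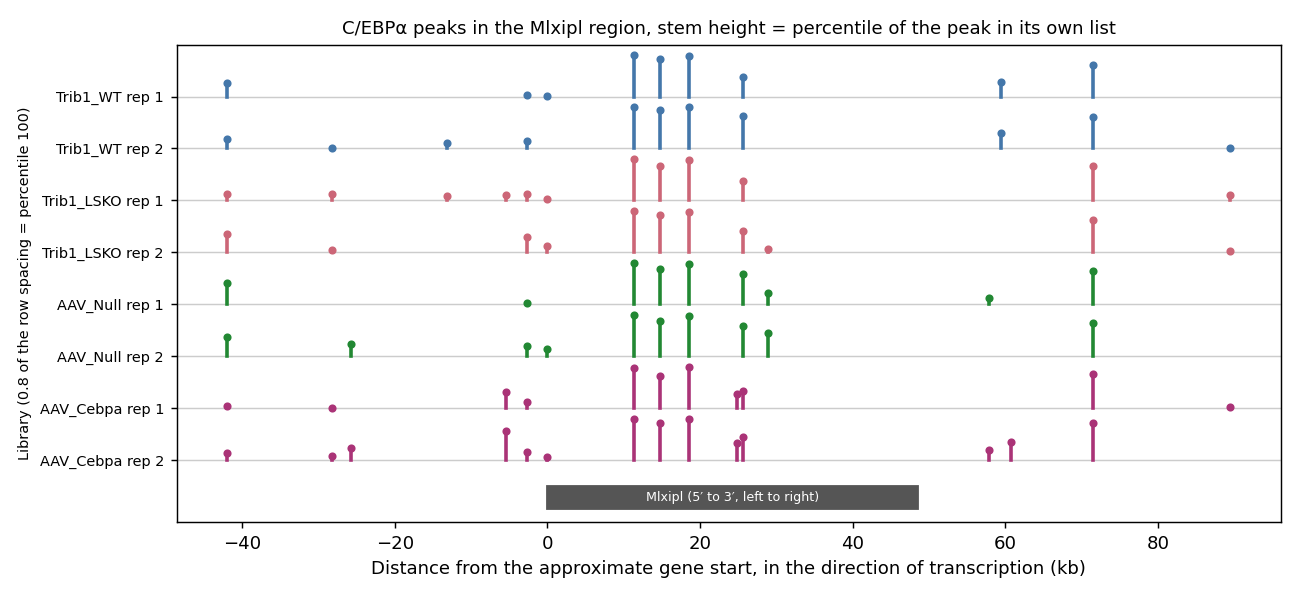
C/EBPα peaks of the 8 libraries (rows, coloured by group) in the Mlxipl region, with the distance in kb from the approximate gene start in the direction of transcription (x axis), the approximate gene span (grey box) and stems as high as the percentile of the peak in its own list. The sites 11.3, 14.7 and 18.5 kb downstream are high in all 8 rows, and the site 5.4 kb upstream appears in both AAV_Cebpa rows and 1 Trib1_LSKO row.

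The comparison of Trib1_LSKO with Trib1_WT addressed the regulators of lipogenesis in livers with Trib1 targeted. No site of either region was gained, meaning called in both Trib1_LSKO and neither Trib1_WT library (0 of 32; 3.15% of all sites). Lost sites, the reverse, numbered 2 of 32 (3.23% of all sites), the weak one 24.6 kb downstream of Srebf1 and the one 59.5 kb downstream of Mlxipl. Neither lay within the gene, and with lists of equal length the Srebf1 site was in no list. Of the 10 sites called in all 8 lists, 2 had both Trib1_LSKO percentiles below both Trib1_WT ones (36% of all such sites), those 2.2 kb upstream in Srebf1 and 14.7 kb downstream in Mlxipl. The site 71.5 kb downstream of Mlxipl alone was above (19.5%). At equal list length it was again 2 below (31.6% of all such sites) and 1 above (22.6%), of 8 sites, with 0 gained (4.27%) and 1 lost (3.41%) of 28. Neither share exceeded the background for being below or above. Differences of group means at these 2 lower sites were -4.6 and -5.6 percentile points. Counting also sites called in the 4 lists of this comparison only, 4 of 12 were below (36.5%), with the Srebf1 sites at 12.2 kb downstream and 18.9 kb upstream added. The largest difference of means at a site called in all 8 lists was -4.6 at Srebf1, at the site 2.2 kb upstream, and 14.8 at Mlxipl, at the weak site 2.7 kb upstream, where the groups overlapped.

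Per region, Trib1_LSKO had 6.5 ± 0.71 Srebf1 peaks and Trib1_WT 8.0 ± 1.41, and for Mlxipl the values were 11.5 ± 0.71 and 10.0 ± 1.41 (± SD over 2 libraries; p = 0.667 for both by an exact permutation test, two-sided). The median percentile of the 3 Srebf1 sites called in all 8 lists was 85.3 ± 1.92 in Trib1_LSKO and 89.9 ± 3.35 in Trib1_WT (exact two-sided permutation p = 0.333, n = 2 each). For the 7 Mlxipl sites it was 80.2 ± 4.18 and 77.5 ± 2.16 (exact permutation p = 0.667, n = 2 each). With 2 libraries against 2 such a test cannot go below 0.333. In every library the Srebf1 median was the value of the site 2.2 kb upstream, so it repeats that 1 site. The Mlxipl median fell on different sites, for instance that at 71.5 kb in Trib1_WT replicate 1 and that at 25.6 kb in replicate 2. The Mlxipl difference of 2.7 turned to -5.3 with lists of equal length, where only 5 of the 7 sites remained in all 8 lists.

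Livers given the vector that codes for C/EBPα were compared with AAV_Null livers at the same genes. Sites gained against AAV_Null numbered 5 of 32 (19.5% of all sites), 2 at Srebf1 (1.2 kb upstream and 59.8 kb downstream) and 3 at Mlxipl (28.2 and 5.4 kb upstream and 24.8 kb downstream). Lost sites numbered 2 of 32 (5.33%), 1 inside each gene, at 18.4 kb in Srebf1 and 28.9 kb in Mlxipl. The gained share was not above the background. AAV_Cebpa had greater relative depth than AAV_Null in both libraries, so depth and treatment cannot be told apart in these counts. With lists of equal length, 1 site was gained in each region, those 1.2 kb upstream of Srebf1 and 5.4 kb upstream of Mlxipl, and 2 Srebf1 and 3 Mlxipl sites were lost. These are 2 gained (14.9% of all sites at this setting) and 5 lost (11.3%) of the 28 sites that remained, and no difference from those shares was tested. The 5 lost sites were those at 18.4 kb in and 22.1 kb upstream of Srebf1, and at 42.0 and 2.7 kb upstream of and 28.9 kb in Mlxipl. Shortening the lists alone removed some of these from AAV_Cebpa. As deposited, both its lists held the Mlxipl sites at 42.0 and 2.7 kb upstream, the latter at percentiles 15 and 20.3. Its replicate 2 held the Srebf1 site at 22.1 kb, at 36.7. Leaving out AAV_Cebpa replicate 1, which lacked 5 Srebf1 sites that replicate 2 held, raised the gained Srebf1 sites from 2 to 4, and leaving out replicate 2 raised the lost ones from 1 to 3.

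At the 10 sites called in all 8 lists, both AAV_Cebpa percentiles were below both AAV_Null ones at 4 (29.7% of all such sites), the Srebf1 site 2.2 kb upstream and the Mlxipl sites at 42.0 kb upstream and 11.3 and 25.6 kb downstream. They were above at 2 (38.4%), the sites 18.0 kb upstream of Srebf1 and 71.5 kb downstream of Mlxipl. With lists of equal length 4 of the 8 sites then called in all 8 lists were below (50% of all such sites) and 0 of 8 above (25.2%), so neither count exceeded the background. The 4 were the Srebf1 site 2.2 kb upstream and the Mlxipl sites at 11.3, 14.7 and 25.6 kb. The largest differences of means were 8.4 at Srebf1, at the site 18.0 kb upstream, and -38.4 at Mlxipl, at the site 42.0 kb upstream. The latter had means of 10.3 ± 8.6 in AAV_Cebpa and 48.6 ± 2.5 in AAV_Null (SD, n = 2 each), and with lists of equal length it dropped out of both AAV_Cebpa lists. The Srebf1 difference did not hold at equal length, where the groups overlapped at the site 18.0 kb upstream (70.6 and 64.4 for AAV_Cebpa, 66.7 and 71.5 for AAV_Null).

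AAV_Cebpa had 7.5 ± 3.54 Srebf1 peaks and AAV_Null 7.0 ± 1.41 (exact two-sided permutation p = 1, n = 2 each), and 12.5 ± 2.12 and 9.5 ± 0.71 Mlxipl peaks (exact permutation p = 0.333, n = 2 each, the smallest possible). The Mlxipl difference of 3.0 peaks became -2.5 with lists of equal length, and the Srebf1 difference of 0.5 became -2.5 as well. Median percentiles of the sites called in all 8 lists were 79.9 ± 2.14 and 83.8 ± 1.46 at Srebf1 (exact permutation p = 0.333, n = 2 each). These were again the values of the site 2.2 kb upstream. The difference of -4.0 became -13.4 with lists of equal length. It was -7.9 with the strongest 50% of each list, where percentiles over fewer peaks widen a difference by construction. Without AAV_Cebpa replicate 1 the value was 3.6, but the site at 12.2 kb, called in the 7 other lists, then joined the set. At the site 2.2 kb upstream itself, AAV_Cebpa replicate 2 stood at 81.4, below AAV_Null at 84.9 and 82.8. At Mlxipl the medians were 83.0 ± 7.10 and 79.6 ± 0.87 (exact permutation p = 1, n = 2 each), and this difference of 3.4 turned to -4.2 with lists of equal length. All sites called in the 8 lists had library medians of 71.1 to 78.4.

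**Figure D4:**
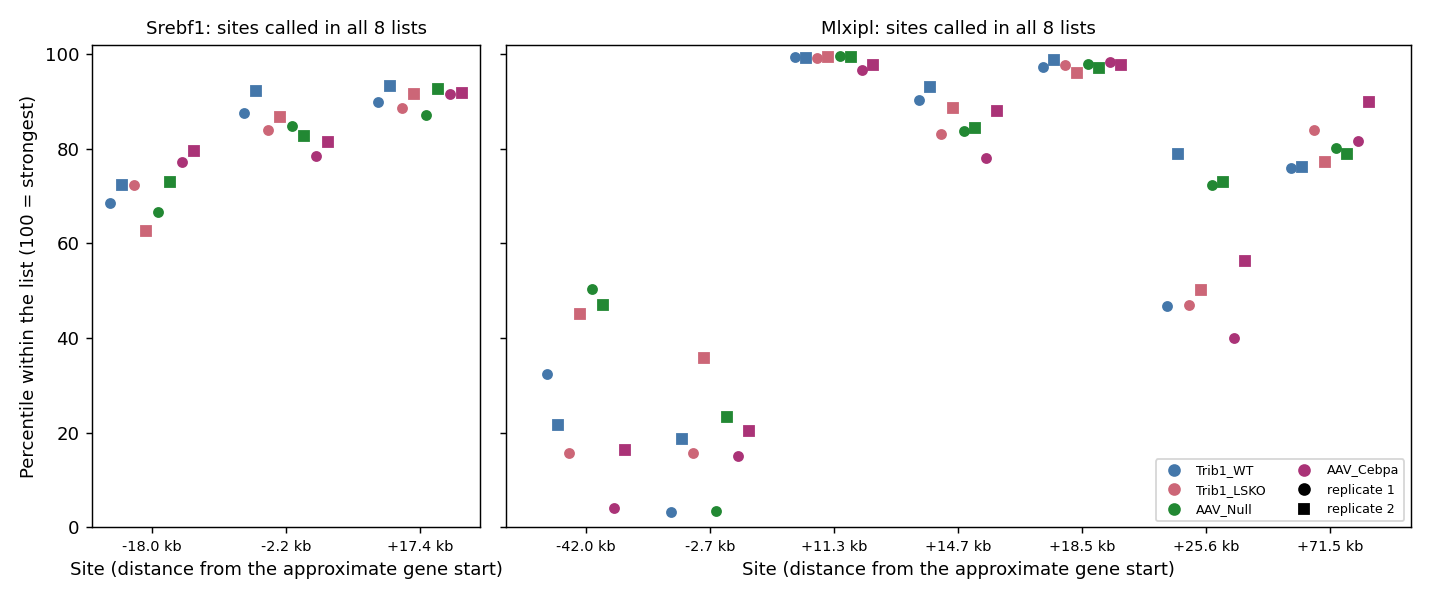
Percentile within its own list (y axis, 100 = strongest) of each peak at the 3 Srebf1 and 7 Mlxipl sites called in all 8 lists (x axis, distance from the approximate gene start), 1 point per library, coloured by group, circles for replicate 1 and squares for replicate 2. The Mlxipl sites at 11.3 and 18.5 kb stay between 96 and 99.7 in all libraries, and the site 42.0 kb upstream runs from 4.15 to 50.4.

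No site of these regions was gained or lost in both experiments (0 of 32). At the site 2.2 kb upstream of Srebf1 the treated libraries were below their own controls in both experiments, a pattern of 1 in 10 of the sites called in all 8 lists against 15.5% genome-wide. At the site 71.5 kb downstream of Mlxipl they were above in both (1 of 10, against 14.8%). The first of these held with lists of equal length, where AAV_Cebpa stood at 72.2 and 67.7 and AAV_Null at 84.9 and 81.8. At that setting 50% of all sites called in all 8 lists had AAV_Cebpa below AAV_Null. The share below in both experiments was not computed there.

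Signals of 2 peaks in the same list share its scaling, so their ratio does not depend on list length. The highest signal was 276.2 in AAV_Null replicate 1, of relative depth 1.00, and 133.1 in AAV_Cebpa replicate 2, of depth 2.27. Whether depth also alters the ratios was not tested. Each of the 5 sites with the highest mean percentile was set against 1 reference per region, the Srebf1 site at 17.4 kb and the Mlxipl site at 18.5 kb, which gave 8 ratios. They were computed after the percentiles had been seen and were not tested. The Mlxipl site at 11.3 kb had 1.32 and 1.04 times the signal of the site at 18.5 kb in Trib1_WT, 1.18 and 1.37 times for Trib1_LSKO, and 1.35 and 1.27 times for AAV_Null. In AAV_Cebpa the ratio was 0.87 and 0.989, below 1, whereas it was above 1 in the other 6 libraries. The 2 signals of AAV_Cebpa replicate 2 were close, at 86.5 and 87.5, so their order there is near a tie. The lowest ratios were in the deepest libraries, AAV_Cebpa (relative depths 1.85 and 2.27) and Trib1_WT replicate 2 (1.93). A part of depth in this order was not tested. The Srebf1 site at 12.2 kb had 0.592 and 0.472 times the signal of the site at 17.4 kb in Trib1_WT, 0.456 and 0.301 times for Trib1_LSKO, 0.286 and 0.372 times for AAV_Null, and 0.295 times in AAV_Cebpa replicate 2. Trib1_WT and Trib1_LSKO did not overlap in this ratio, but their nearest values, 0.472 and 0.456, were closer to each other than the replicates of either group.

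Of the other ratios, that of the Mlxipl site at 71.5 kb to the site at 18.5 kb was higher in treated libraries in both experiments, at 0.517 and 0.483 for Trib1_LSKO against 0.379 and 0.388 for Trib1_WT, and at 0.485 and 0.702 for AAV_Cebpa against 0.38 and 0.421 for AAV_Null. By this measure the AAV groups did not overlap, whereas their percentiles at equal list length did. The Srebf1 site 18.0 kb upstream likewise had 0.63 and 0.668 times the signal of the site at 17.4 kb for AAV_Cebpa, above the 0.484 and 0.456 for AAV_Null, and its Trib1 groups overlapped. At the Srebf1 site 2.2 kb upstream the ratio was lower for Trib1_LSKO (0.845 and 0.828) than for Trib1_WT (0.903 and 0.957), but AAV_Cebpa (0.652 and 0.709) and AAV_Null (0.902 and 0.642) overlapped. The Srebf1 site 18.9 kb upstream stood at 0.421 and 0.379 for Trib1_LSKO and 0.534 and 0.424 for Trib1_WT, with nearest values closer than the replicates of either group. The ratio of the Mlxipl site at 25.6 kb was lower for AAV_Cebpa (0.179 and 0.272) than for AAV_Null (0.291 and 0.348). The nearest values of these AAV groups were again closer than the replicates of either group, and the Trib1 groups overlapped. The ratio at 14.7 kb overlapped or tied in both comparisons.

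**Figure D5:**
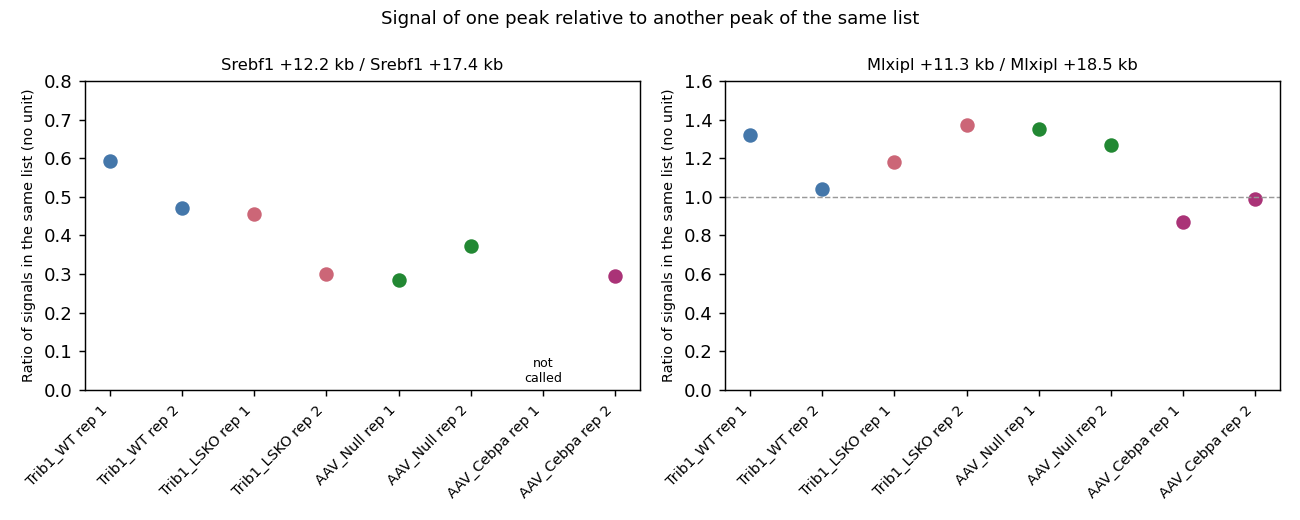
Ratio of the deposited signals of 2 peaks in the same list (y axis, no unit) for each library (x axis, coloured by group), 1 point per library. Left, the Srebf1 site at 12.2 kb relative to that at 17.4 kb, from 0.286 to 0.592, with no value for AAV_Cebpa replicate 1, where the former was not called. Right, the Mlxipl site at 11.3 kb relative to that at 18.5 kb, with the dashed line at equal signal; the AAV_Cebpa points, 0.87 and 0.989, are the only ones under it.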

How the data were processed

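C/EBPα ChIP-seq of frozen, formaldehyde-crosslinked mouse liver nuclei gave 8 libraries, 4 groups of 2. The authors deposited 1 peak list per library, without a header line, holding a position and a signal value per peak. Alignment used Bowtie, peaks HOMER, and coordinates build mm9, per the submitters' processing notes; versions, threshold, input library and duplicate handling were not given in the sources used here. The deposited signal values were whole multiples of 1 step per library (within 0.051), and the inverse of the step was taken as relative depth. Absolute depth is unknown.

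With Python 3.11.15, numpy 2.4.6 and pandas 2.3.3, 200 bp windows at peak midpoints that overlapped by at least 1 bp across the 8 libraries were joined into sites. Positions are 1-based. Percentiles give tied signals their mean rank. Library values were compared by an exact two-sided permutation test. Joining and calling were tested on simulated lists. Named with values in every list are gained and lost sites, sites within 2 kb of a gene start, the 5 sites with the highest mean percentile per region and the largest difference per comparison; most other sites are given too. A planned list of other lipogenic genes was not used, since it needs an mm9 annotation. Members, gene list and rules were chosen with earlier results of these data known. Replicate lists shared at most 2.3% of exact positions, so none is a copy. The alternatives were other window sizes, stronger peaks only, lists of equal length, a narrower region, leaving out each library and a replicate block.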

Additional observations from a re-analysis of the deposited data

How the results depend on the processing

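All 18 recomputed values are small counts or differences. Of 260 values under alternatives, 210 kept their direction or lay within 1.5 times the reported count, 32 moved and 18 reversed. Part of the 210 was fixed by design. Gained, lost and peak counts of an experiment rest on its own libraries, so leaving out a library of the other cannot move them. The replicate block likewise cannot move a difference. The 210 is therefore no measure of stability. The cause of the changes was not tested beyond the smaller lists. Windows of 100 and 400 bp changed none. Percentiles within the strongest 50% of each list are taken over fewer peaks, so differences at the same sites widen there by construction. With the strongest 50% of each list, 8 Mlxipl and 7 Srebf1 sites remained, gained and lost sites were 0 wherever they had been above 0, peak differences were -1.0 (AAV_Cebpa, Mlxipl), 0.0 (AAV_Cebpa, Srebf1) and -0.5 (Trib1_LSKO, Mlxipl), and the median percentile differed by -6.4 at Mlxipl and -9.2 at Srebf1 for Trib1_LSKO, and by 1.3 and -7.9 for AAV_Cebpa. With lists of equal length (46348 peaks), AAV_Cebpa had 1 gained site per region, 3 lost at Mlxipl and 2 at Srebf1, Trib1_LSKO 0 lost at Srebf1, peak differences of -2.5 in both regions for AAV_Cebpa, Mlxipl median differences of -4.2 (AAV_Cebpa) and -5.3 (Trib1_LSKO), and a Srebf1 one of -13.4 (AAV_Cebpa). With a signal of at least 10, AAV_Cebpa had 1 gained Srebf1 and 2 lost Mlxipl sites, Trib1_LSKO 0 lost Srebf1 sites, peak differences were 0.0 (AAV_Cebpa, Mlxipl), -0.5 (AAV_Cebpa, Srebf1) and -0.5 (Trib1_LSKO, Mlxipl), and the median difference was -5.9 at Mlxipl for Trib1_LSKO, and 0.6 at Mlxipl and -6.8 at Srebf1 for AAV_Cebpa. Within 10 kb of the gene spans, 10 Mlxipl and 8 Srebf1 sites remained, with 1 gained Srebf1 site for AAV_Cebpa, 0 lost Mlxipl sites for Trib1_LSKO, a Srebf1 peak difference of -0.5 for AAV_Cebpa, Mlxipl median differences of -1.0 (AAV_Cebpa) and -5.6 (Trib1_LSKO), and Srebf1 ones of -1.2 (AAV_Cebpa) and -3.0 (Trib1_LSKO).

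Leaving out each library in turn gave 0 to 2 gained Mlxipl and 0 to 1 gained Srebf1 sites and 1 to 2 lost Srebf1 sites for Trib1_LSKO, and 2 to 4 gained and 1 to 3 lost Srebf1 sites for AAV_Cebpa; the count of lost Mlxipl sites was 1 throughout in each comparison. Gained Mlxipl sites for AAV_Cebpa ran from 3 to 4. The AAV_Cebpa peak difference ran from -2.0 (without AAV_Cebpa replicate 2) to 3.0 at Srebf1, where it was -0.5 without AAV_Null replicate 1, and from 1.5 to 4.5 at Mlxipl. The Trib1_LSKO peak difference ran from -2.5 to -0.5 at Srebf1 and from 0.5 to 2.5 at Mlxipl. Median differences ran from -1.6 (without AAV_Cebpa replicate 2) to 8.4 at Mlxipl and from -5.5 to 3.6 (without AAV_Cebpa replicate 1) at Srebf1 for AAV_Cebpa, and from -0.2 (without Trib1_LSKO replicate 1) to 5.7 at Mlxipl and from -6.9 to -2.2 at Srebf1 for Trib1_LSKO. The value of 3.6 includes the Srebf1 site at 12.2 kb, which was called in every list but AAV_Cebpa replicate 1. Gained and lost counts loosen with 1 library in a group, and these values have no test.

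The labels give equal replicate numbers but no shared animal or day. Deviations of same-numbered libraries correlated at 0.14 (Trib1_LSKO and Trib1_WT) and -0.02 (AAV_Cebpa and AAV_Null) over sites called in the 4 lists. The replicate block left each difference as it was by construction, for instance 3.0 Mlxipl peaks for AAV_Cebpa. At weak sites a missing call cannot be told apart from a signal just under the threshold.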
